A study of Mus musculus with 12 samples.

Results

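Cells recognise foreign or misplaced RNA and DNA in the cytosol with a small set of sensors that feed shared kinases. The set described here is 8 mouse genes, taken by symbol from the deposited count table of 54532 genes: the sensors Ddx58, Ifih1 and Dhx58, the adaptor Mavs, the kinases Tbk1 and Ikbke, the nucleic acid binding protein gene Zbp1 and the RNA-editing enzyme gene Adar. The rule that picks them uses symbols and no measured value, but the set was chosen with earlier results of these data known. All 8 were in the table. 7 of the 8 had enough reads to be tested, and Zbp1 did not.

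The libraries were made from N9 cells, an established mouse microglial line, in 4 groups of 3. Fructose + LPS cells had control medium with 15 mM fructose, and glucose + LPS cells had control medium with 15 mM glucose; whether 15 mM is the final or the added concentration is not stated. The LPS cells and the control cells had control medium, which was glucose-free DMEM with dialysed serum, 3 mM glucose and 5 mM fructose. Cells were kept in their medium for 18 h, and every group but the control then received 1 µg/ml lipopolysaccharide (LPS), the outer-membrane lipid of Gram-negative bacteria, for 6 h. N9 is a single line, and the labels describe neither raised sugar without LPS nor an osmotic control, so the comparisons between sugars hold under LPS alone. Separate cultures are not stated for the 3 replicates of a group, and p-values then measure the spread between libraries, which may be technical.

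In this pathway, RIG-I (the protein of Ddx58) and MDA5 (Ifih1) bind double-stranded or uncapped RNA and engage the mitochondrial adaptor MAVS, which activates the kinases TBK1 and IKKε (Ikbke). The kinases phosphorylate the transcription factors IRF3 and IRF7, which switch on type I interferon genes, and interferon signalling through STAT2 and IRF9 raises the sensors again through interferon-stimulated response elements in their promoters. LGP2 (Dhx58) resembles the other sensors but lacks the domains that bind MAVS. ZBP1 binds Z-form nucleic acids and can start cell death, and ADAR1 (Adar) converts adenosine to inosine in double-stranded RNA, which keeps the cell's own RNA from MDA5. In macrophages and microglia LPS reaches TBK1 and IKKε through TLR4 and its adaptor TRIF (Ticam1), without an RNA ligand.

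The promoters are shown for 2 sensor genes and the third annotated start of Adar, which hold interferon elements, and for Mavs, which does not. They are RefSeq sequences of build GRCm38.p6, from 250 bases before to 50 after a gene's start, 5′ to 3′ on the gene's strand. Capitals mark every match on either strand to the core of the interferon-stimulated response element, which is GAAA and GAAA with any 2 bases between, or to the shorter GAAANNGAA, which the core contains and which was added to the search after the sequences had been seen.
Ddx58, chr4:40239776-40240075, minus strand: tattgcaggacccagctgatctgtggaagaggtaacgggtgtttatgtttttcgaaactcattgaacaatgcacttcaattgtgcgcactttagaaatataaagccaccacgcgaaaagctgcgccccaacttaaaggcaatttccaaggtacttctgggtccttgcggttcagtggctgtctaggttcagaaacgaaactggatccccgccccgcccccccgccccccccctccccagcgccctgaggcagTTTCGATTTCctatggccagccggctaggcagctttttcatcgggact
Ifih1, chr2:62646206-62646505, minus strand: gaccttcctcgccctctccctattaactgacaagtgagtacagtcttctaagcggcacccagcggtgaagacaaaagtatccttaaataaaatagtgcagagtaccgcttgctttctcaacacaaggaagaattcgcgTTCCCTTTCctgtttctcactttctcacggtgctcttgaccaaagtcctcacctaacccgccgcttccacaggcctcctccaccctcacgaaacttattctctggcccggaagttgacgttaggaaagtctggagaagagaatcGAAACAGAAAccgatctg
Adar, the third start, chr3:89730468-89730767, plus strand: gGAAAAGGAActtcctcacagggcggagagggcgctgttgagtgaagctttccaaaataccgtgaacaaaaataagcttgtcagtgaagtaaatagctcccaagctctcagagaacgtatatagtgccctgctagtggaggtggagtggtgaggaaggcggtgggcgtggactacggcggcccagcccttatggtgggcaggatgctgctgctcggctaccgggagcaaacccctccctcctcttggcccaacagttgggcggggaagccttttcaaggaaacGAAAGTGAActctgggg
Mavs, chr2:131233813-131234112, plus strand: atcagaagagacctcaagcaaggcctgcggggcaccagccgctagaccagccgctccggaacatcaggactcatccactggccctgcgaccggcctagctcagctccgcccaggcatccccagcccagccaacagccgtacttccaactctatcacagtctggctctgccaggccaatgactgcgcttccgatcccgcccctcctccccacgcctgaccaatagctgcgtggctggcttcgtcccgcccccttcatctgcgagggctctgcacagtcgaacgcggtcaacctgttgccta

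The core lay at bases 3 to 12 after the start in Ddx58 and at bases 33 to 42 in Ifih1. The full core was found in 3.44% of the 32851 mouse promoters of the same length, and the shorter element in 8.56%. Ifih1 held a further shorter element at bases -112 to -104. The third start of Adar, which lies inside the gene, held the shorter element at -249 to -241 and at 34 to 42. That start also held a STAT-type site, TTCNNNGAA, at bases 23 to 31, a motif found in 8.3% of promoters. None of these motifs, nor a kappa B-type site, GGGA and TTTCC with any base between (0.411% of promoters), was found in the windows of Mavs, Tbk1, Ikbke or the other 2 starts of Adar. RefSeq promoters were matched for 6 of the 8 genes, with 8 starts in all, and Dhx58 and Zbp1 had no entry. A match is a description of the letters, not evidence that a factor binds.

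Total counts were 15453776 to 16562344 in fructose + LPS, 15919091 to 16743251 in glucose + LPS, 16363767 to 17015639 in LPS and 16589508 to 17956772 in control libraries. Of 10 microglia and macrophage markers, Cd68 averaged 659, 638, 659 and 615 CPM (counts per 10⁶) in the 4 groups in that order. Aif1 and P2ry12, which also define microglia, were under 1 CPM in every group. The summed level of the 10 markers was 1499 to 1601 CPM in fructose + LPS, 1444 to 1501 in glucose + LPS, 1602 to 1655 in LPS and 1503 to 1604 in control. The 6 lymphocyte markers summed to at most 0.263 CPM in any library. Fibroblast and endothelial markers, 6 in number, summed to 1.45 to 13.0 CPM in fructose + LPS and 1.22 to 6.82 in glucose + LPS. In LPS they summed to 1.02 to 5.71 CPM and in control to 0.391 to 7.62. A principal component analysis put 46.8% of the variance on an axis that separated LPS-treated from control libraries, and within groups glucose + LPS replicate 1 and fructose + LPS replicates 1 and 2 lay apart from their groups on the next components. Levels of bulk RNA cannot tell fewer expressing cells from less RNA per cell.

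LPS in control medium raised the RNA sensors Ddx58, Dhx58 and Ifih1 by 21.1-, 14.6- and 11.4-fold, the kinase Ikbke by 3.49-fold and Adar by 2.85-fold, while Tbk1 rose by 1.36-fold and Mavs did not pass the test. 6 of the 7 tested genes were called higher at an adjusted p below 0.05 (edgeR's quasi-likelihood test, Benjamini-Hochberg over all genes tested), where 15.2% of the 12766 tested genes were called higher, 13.6% lower and 28.8% in either direction. 5 of the 7 were at least 2-fold higher, against 3.94% of all tested genes. In the 6 called genes no LPS library overlapped a control library, as in 22.6% of all tested genes in the higher direction. Of all calls, 52.8% were in the higher direction, and the split moved to 41.4% with upper-quartile scaling and to 32.4% with library totals alone. The 6 calls were made under every setting tried.

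Ddx58 (ENSMUSG00000040296, chr4:40203773-40239828, minus strand, GRCm38), which encodes RIG-I, had 167, 176 and 159 CPM in the LPS libraries, against 7.05, 8.61 and 8.08 CPM in the control libraries. The groups were far apart, and the lowest LPS library stood many times above the highest control library. The log2 fold change was 4.40 ± 0.08 (SE; 95% interval 4.22 to 4.58; adjusted p = 6.38e-17), the 59th largest rise of the 12766 genes. Ifih1 (ENSMUSG00000026896, chr2:62595798-62646255, minus strand), which encodes MDA5, had 74.4, 75.7 and 70.6 CPM with LPS, against 5.73, 6.99 and 6.65 CPM in control, a log2 fold change of 3.51 ± 0.10 (3.29 to 3.73; adjusted p = 1.71e-14). Dhx58 (ENSMUSG00000017830, chr11:100694884-100704271, minus strand), which encodes LGP2, had 64.4, 65.5 and 62.5 CPM with LPS, against 5.39, 3.74 and 4.04 CPM in control. Its log2 fold change was 3.87 ± 0.10 (3.65 to 4.09; adjusted p = 4.79e-15). For both genes, as for Ddx58, no LPS library overlapped a control library.

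The adaptor stood apart from its sensors. Mavs (ENSMUSG00000037523, chr2:131234063-131248025, plus strand) had 50.5, 59.4 and 54.0 CPM with LPS, against 56.6, 52.3 and 53.0 CPM in control, and the groups overlapped. The log2 fold change was 0.02 (95% interval -0.12 to 0.16; adjusted p = 0.875), and its sign turned to -0.03 with upper-quartile scaling and -0.07 with library totals alone. The interval covers at most a small change in mRNA in either direction and says nothing of the protein.

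**Figure D1:**
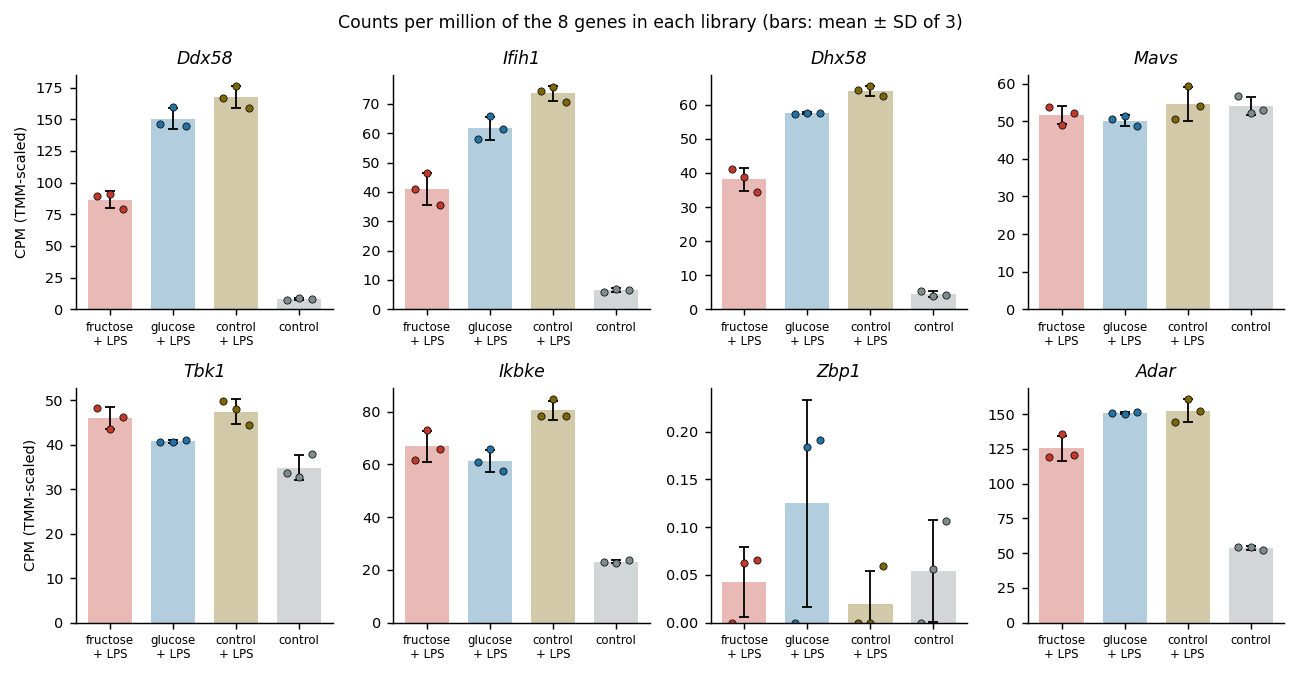
Level of each of the 8 genes in every library, in CPM on the vertical axis (linear, a separate scale for each gene), for fructose + LPS, glucose + LPS, LPS (control + LPS on the axis) and control libraries from left to right. Points are libraries and bars are the mean ± SD of 3; the sensors Ddx58, Ifih1 and Dhx58 are high in all LPS-treated groups and lowest among these with fructose, while Mavs lies between 48.6 and 59.4 CPM throughout.

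The kinases both rose with LPS but to different degrees. Ikbke (ENSMUSG00000042349, chr1:131254343-131279606, minus strand), whose product IKKε is the inducible member of the pair, had 78.5, 84.8 and 78.3 CPM with LPS, against 22.9, 22.5 and 23.8 CPM in control. Its log2 fold change was 1.80 ± 0.07 (1.65 to 1.96; adjusted p = 1.66e-12). Tbk1 (ENSMUSG00000020115, chr10:121546455-121586787, minus strand), the kinase present in most cells, had 49.9, 48.0 and 44.3 CPM with LPS, against 33.5, 32.7 and 38.0 CPM in control. Its log2 fold change was 0.45 ± 0.07 (0.30 to 0.60; adjusted p = 0.000104), and no library of one group reached the other for either kinase.

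Per gene length, Ikbke stood below Tbk1 in all 12 libraries. The length is all exonic bases, 9018 for Ikbke and 3910 for Tbk1, and their longest transcripts have 5856 and 3024 bases. In CPM, which ignores length, Ikbke stood above Tbk1 in every LPS-treated library and below it in every control library. The size of the ratio rests on that length, which cancels in log2 differences between groups. The ratio of Ikbke to Tbk1 in FPKM (reads scaled to gene length and library size) was 0.683, 0.765 and 0.766 with LPS, against 0.296, 0.298 and 0.271 in control. On the log2 scale the ratio was -0.44 ± 0.095 with LPS and -1.79 ± 0.076 in control (SD, n = 3 each), a difference of 1.35. All LPS libraries lay above all control libraries, and the two-sided exact permutation test gave p = 0.1, the smallest that 3 against 3 libraries allow. In fructose + LPS the ratio was 0.553, 0.731 and 0.619, and in glucose + LPS it was 0.652, 0.702 and 0.607.

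**Figure D2:**
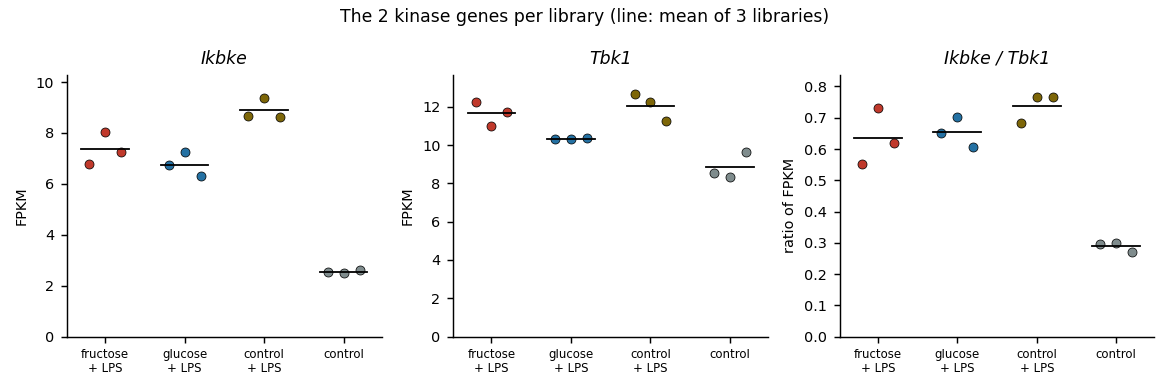
FPKM of Ikbke and of Tbk1 and the ratio of Ikbke to Tbk1 in each library (linear axes), for fructose + LPS, glucose + LPS, LPS (control + LPS on the axis) and control libraries from left to right; points are libraries and lines are the mean of 3. The ratio lies between 0.271 and 0.298 in control libraries and between 0.553 and 0.766 in the 9 LPS-treated libraries.

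Adar (ENSMUSG00000027951, chr3:89715022-89753446, plus strand) had 144, 161 and 152 CPM with LPS, against 54.3, 54.0 and 52.0 CPM in control, with a log2 fold change of 1.51 ± 0.06 (1.39 to 1.64; adjusted p = 7.90e-13). The counts are per gene and cannot separate transcripts from the third start from those of the other starts. Of Adar's exonic bases 16.8% overlap Chrnb2, a gene on the other strand with 15 to 38 counts in any library, and 23.2% of its transcript sequence matches other genes at 98% identity or more. The overlap on the other strand was 4.31% for Dhx58 and 2.48% for Ikbke and 0 for the other 5 genes. Matches to other genes took up 6.01% of Dhx58, 1.998% of Ikbke and 0 of the other 5. Overlapping genes were not left out of the match search, which covered both strands. The overlap and the match of a gene may therefore count the same bases. The strand setting of the counting is not given, so reads of overlapping genes may not be separated. The same limit holds for genes of the pathway lists below. For example, the overlap on the other strand was 14.1% for Irf5 (with Tnpo3), 8.07% for Tyk2 and 7.32% for Tlr3. The overlapping genes of Dhx58 and Ikbke had at most 7 counts in any library, which does not show how reads in the shared bases were assigned.

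Zbp1 (ENSMUSG00000027514, chr2:173206612-173218923, minus strand) was near the limit of detection in every group. It had 0, 1 and 1 reads in fructose + LPS, 0, 3 and 3 in glucose + LPS, 0, 0 and 1 in LPS and 0, 1 and 2 in control libraries. Summed over a group this was 0.0413 CPM in fructose + LPS (exact Poisson 95% interval 0.00500 to 0.149), 0.122 in glucose + LPS (0.0448 to 0.265), 0.0199 in LPS (0.000503 to 0.111) and 0.0581 in control (0.0120 to 0.170), intervals that cover counting error only. The intervals overlap, and no difference between groups was detectable at this depth. With no filter on low counts, the 4 comparisons gave Zbp1 adjusted p-values of 0.760 to 0.983.

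The order of the levels per gene length changed with LPS. The length is all exonic bases of a gene, 7050 for Ddx58 and 3345 for Mavs. Their longest transcripts have 3874 and 3057 bases, so the order between genes may differ with another length. In control libraries Mavs was highest at 16.1 FPKM, followed by Tbk1 at 8.84, Adar at 6.55 and Ikbke at 2.55, while the sensors stood at the low end with Dhx58 at 1.34, Ddx58 at 1.12 and Ifih1 at 0.786 FPKM. Dhx58 and Ddx58 overlapped in that order and the other neighbours did not. With LPS, Ddx58 was highest at 23.6 FPKM, followed by Dhx58 at 19.5, Adar at 18.7 and Mavs at 16.3, and the last 3 overlapped in turn. Tbk1 at 12.1 came next, and Ifih1 at 8.97 and Ikbke at 8.89 FPKM overlapped at the low end.

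Other genes on the 6 pathway lists rose with LPS too. Of 7 tested genes of type I interferon signalling, 5 rose and 0 fell (median log2 fold change 0.92, against -0.00 over all tested genes), among them Stat2 (2.24), Irf9 (2.07) and the receptor kinase gene Tyk2 (0.92). Ifnb1 itself had 0 or 1 reads in LPS and 0 in control libraries, and Ifna1, Ifna2 and Ifna4 had 0 in all 12. Of 16 partners and substrates of TBK1 and IKKε, 11 rose and 0 fell (median 0.30; 10 rose with upper-quartile scaling and 8 with library totals alone). Irf7 averaged 141 CPM with LPS and 9.05 CPM in control (log2 fold change 3.96), while Irf3, the factor present before stimulation, had a log2 fold change of -0.05 (adjusted p = 0.753). The adaptor genes Ticam1 (0.80), Azi2 (0.46), Tank (0.35) and Traf3 (0.23) and the factor gene Irf5 (0.39) rose, the call for Traf3 being lost with library totals alone (adjusted p = 0.0691).

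Of 13 tested regulators of the RIG-I-like receptors, 4 rose with LPS and 1 fell (median 0.05; 4 and 2 with upper-quartile scaling, 3 and 3 with library totals alone), beside 15.2% higher and 13.6% lower among all tested genes. Trim25, the ubiquitin ligase that activates RIG-I, averaged 551 CPM with LPS and 230 CPM in control (log2 fold change 1.26). Ddx60, a helicase gene reported to aid RIG-I, averaged 18.0 and 0.582 CPM (4.91), and Riok3 rose by 0.61. Tax1bp1 rose by 0.19, a call lost with library totals alone (adjusted p = 0.149) and without LPS replicate 1 (0.0519). Nlrx1, an inhibitor of MAVS named after its value was seen, fell by 0.52 (adjusted p = 0.0320), but 0 genes of this list were called lower without control replicate 2 or 3 or LPS replicate 1, 2 or 3. Rnf125, a ligase that degrades RIG-I, had 1 to 3 reads with LPS and 1 to 7 in control libraries and was not tested.

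In DNA sensing, 8 of 17 tested genes rose with LPS and 1 fell (median 0.12; 7 rose under both other scalings, and 1 fell with upper-quartile scaling and 3 with library totals alone). The 1 fall, Xrcc6 (-0.21, adjusted p = 0.0298), named after its value was seen, was lost with no filter and without control replicate 1 or 2 or LPS replicate 2 or 3, where 0 genes of the list were called lower. Ifi204 (log2 fold change 4.13), Ifi203 (3.38) and Mndal (2.97), of the interferon-inducible p200 family, rose, as did Samhd1 (0.97), a dNTP hydrolase gene, and Mb21d1 (0.49), which encodes the DNA sensor cGAS. Tmem173, which encodes its adaptor STING, had a log2 fold change of -0.12 (adjusted p = 0.211; -0.21 and 0.0205 with library totals alone). Among 8 partners of ZBP1 in cell death, 4 rose and 1 fell (median 0.20): Nlrp3 (1.52), Cflar (0.84) and Mlkl (0.82), the executor of necroptosis, rose, while the necroptosis kinase gene Ripk3 fell by 0.53. Of 11 tested proteins that bind double-stranded RNA, 4 rose and 0 fell (median 0.07; 2 fell with library totals alone), among them Tlr3 (1.79), the translation-blocking kinase gene Eif2ak2 (1.61) and Adarb1 (0.88), an editing relative of Adar. Neuron markers, 6 of 7 of them under 1 CPM, summed to 16.9 to 18.2 CPM with LPS and 22.4 to 23.8 in control, carried by Map2. The 6 oligodendrocyte markers summed to 41.7 to 42.5 CPM with LPS and 45.0 to 53.3 CPM in control, carried by Mbp and Cnp. The part of these markers in the LPS results was not tested.

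High fructose under LPS lowered the 3 RNA sensors by the most among the 7 tested genes, with mean levels 51.6% (Ddx58), 55.6% (Ifih1) and 59.5% (Dhx58) of those in LPS libraries. Adar was at 82.2% and Ikbke at 83.1%, while Tbk1 at 96.9% and Mavs at 94.5% did not pass the test. 5 of the 7 tested genes were called lower and 0 higher, where 2.55% of tested genes were called lower, 2.37% higher and 4.91% in either direction. The median log2 fold change of the 7 genes was -0.28, against -0.00 over all tested genes.

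Ddx58 had 89.2, 91.2 and 78.9 CPM in fructose + LPS, against 167, 176 and 159 CPM in LPS libraries. Every fructose + LPS library was below every LPS library and far above the control libraries. The log2 fold change was -0.95 ± 0.07 (95% interval -1.09 to -0.81; adjusted p = 1.23e-07), the 146th largest fall of 12766. Ifih1 had 40.8, 46.4 and 35.6 CPM in fructose + LPS, against 74.4, 75.7 and 70.6 CPM in LPS, a log2 fold change of -0.84 ± 0.08 (-1.02 to -0.67; adjusted p = 4.37e-06). Dhx58 had 41.1, 38.8 and 34.5 CPM in fructose + LPS, against 64.4, 65.5 and 62.5 CPM in LPS, a log2 fold change of -0.75 ± 0.08 (-0.92 to -0.58; adjusted p = 1.09e-05). The 3 sensors were called lower without any 1 of the 12 libraries in turn. Across these fits the log2 fold change ran from -0.99 to -0.89 for Ddx58, from -0.94 to -0.75 for Ifih1 and from -0.81 to -0.68 for Dhx58.

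Adar had 119, 136 and 120 CPM in fructose + LPS, against 144, 161 and 152 CPM in LPS, a log2 fold change of -0.28 ± 0.06 (-0.40 to -0.16; adjusted p = 0.00463). Its groups did not overlap, and it was called without any 1 library in turn. Ikbke had 61.6, 73.2 and 66.0 CPM in fructose + LPS, against 78.5, 84.8 and 78.3 CPM in LPS, a log2 fold change of -0.27 ± 0.07 (-0.41 to -0.12; adjusted p = 0.0274). That call was lost without LPS replicate 1 (adjusted p = 0.0564), 2 (0.153) or 3 (0.0518) and without fructose + LPS replicate 1 (0.126) or 3 (0.0934). The 5 called genes were each without overlap between the groups, as were 1280 of the 12766 tested genes, 10%, in the lower direction.

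Mavs and Tbk1 did not pass the test. Mavs had 53.8, 49.0 and 52.2 CPM in fructose + LPS, against 50.5, 59.4 and 54.0 CPM in LPS, a log2 fold change of -0.08 (-0.22 to 0.06; adjusted p = 0.647). Tbk1 had 48.2, 43.4 and 46.2 CPM in fructose + LPS, against 49.9, 48.0 and 44.3 CPM in LPS, a log2 fold change of -0.04 (-0.20 to 0.11; adjusted p = 0.845). In both, the groups overlapped.

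**Figure D3:**
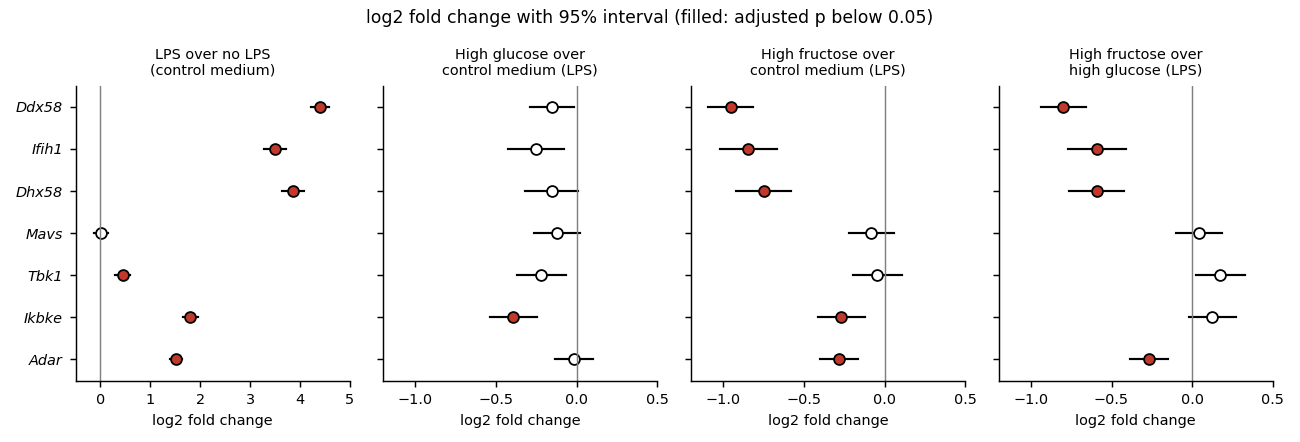
Log2 fold change of the 7 tested genes in each of the 4 comparisons (horizontal axis, 0 marks no difference), with the 95% interval from edgeR as a line; filled points passed an adjusted p below 0.05. LPS raised 6 genes, fructose under LPS lowered Ddx58, Ifih1, Dhx58, Adar and Ikbke, and glucose under LPS lowered Ikbke.

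Other genes of the pathway lists also fell with fructose. Irf7 averaged 73.7 CPM in fructose + LPS and 141 CPM in LPS (log2 fold change -0.93), Ddx60 8.14 and 18.0 CPM (-1.14), and Ifi204 43.2 and 96.8 CPM (-1.16). By list, 1 of 13 RIG-I-like receptor regulators fell and 0 rose. 3 of 16 kinase partners fell and 0 rose, namely Irf7, Irf5 (-0.32) and Azi2 (-0.22, adjusted p = 0.0466). The call for Azi2 was lost without LPS replicate 1, 2 or 3, fructose + LPS replicate 2 or 3, glucose + LPS replicate 1 or control replicate 2 or 3 (adjusted p 0.0536 to 0.204). 5 of 17 DNA sensing genes fell and 0 rose, which were Ifi204, Ifi203 (-0.79), Mndal (-0.71), Samhd1 (-0.41) and Mb21d1 (-0.40). Irf3, Ticam1, Traf3, Tank, Trim25 and Tmem173 were not called.

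Of 8 ZBP1 partners, 2 fell and 0 rose: Mlkl (-0.31) and Casp8 (-0.23, adjusted p = 0.0376), the call for Casp8 being lost without LPS replicate 1, 2 or 3 or fructose + LPS replicate 2 or 3 (0.0749 to 0.153). Of 11 double-stranded RNA proteins, 3 fell and 1 rose. Tlr3 (-0.88) and Eif2ak2 (-0.65; 118 CPM in fructose + LPS and 184 CPM in LPS) were among those that fell, and Adarb1 rose by 0.33. Of 7 interferon signalling genes, 3 fell and 0 rose, among them Stat2 (-0.69; 54.3 CPM in fructose + LPS and 87.8 CPM in LPS) and Irf9 (-0.25, adjusted p = 0.0200), the call for Irf9 being lost without LPS replicate 1 or 2 or fructose + LPS replicate 1 or 3 (0.0755 to 0.0957). Ifnb1 had 0 reads in every fructose + LPS library and 0 or 1 in LPS libraries. The median log2 fold changes of the 6 lists lay between -0.11 and 0.03, against -0.00 over all tested genes.

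Several other measures moved with the fructose group. The share of counts on ribosomal RNA genes was 0.313 to 0.423% in fructose + LPS, against 0.457 to 0.585% in LPS libraries. The 6 astrocyte markers summed to 113.9 to 117.7 CPM in fructose + LPS and 94.1 to 102.6 CPM in LPS, carried by Gja1 (log2 fold change 0.30, adjusted p = 0.00493), while Gfap and Aqp4 averaged 0.104 and 0.0206 CPM in fructose + LPS. The 6 oligodendrocyte markers summed to 43.1 to 49.0 CPM in fructose + LPS and 41.7 to 42.5 CPM in LPS. The 10 microglia and macrophage markers summed to 1499 to 1601 CPM in fructose + LPS and 1602 to 1655 CPM in LPS, and 2 of the 8 tested fell and 0 rose, Csf1r (-0.20, adjusted p = 0.00620) among them. The part of these measures in the fructose results was not tested.

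**Figure D4:**
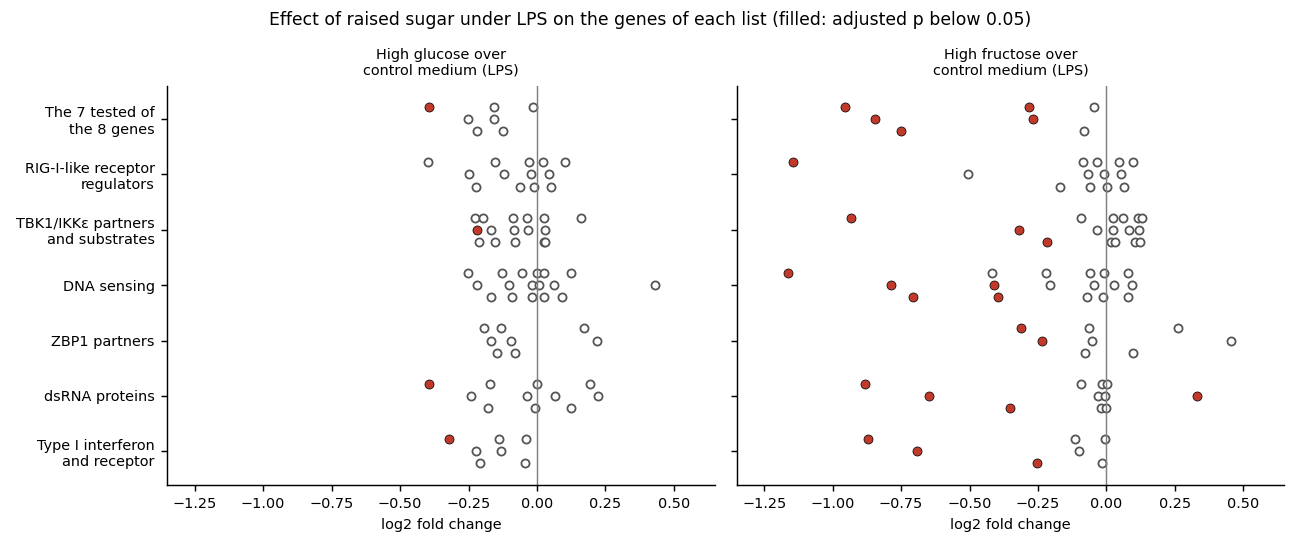
Log2 fold change under LPS of each tested gene for the 7 genes and the 6 pathway lists, for high glucose (left) and high fructose (right), each over LPS in control medium (0 marks no difference). Each point is a gene, filled where the adjusted p was below 0.05, with heights within a list spread for legibility; the lowest points with fructose are Ifi204 (-1.16), Ddx60 (-1.14) and Ddx58 (-0.95).

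High glucose under LPS was followed by a lower level of Ikbke and by no other call among the 7 genes. 1 of 7 was called lower and 0 higher, where 0.971% of tested genes were called lower, 0.587% higher and 1.56% in either direction. Ikbke had 61.0, 65.7 and 57.4 CPM in glucose + LPS, against 78.5, 84.8 and 78.3 CPM in LPS, with no overlap, and a log2 fold change of -0.39 ± 0.07 (-0.54 to -0.25; adjusted p = 0.00680). Without LPS replicate 2 the value was -0.35 and the call was lost (adjusted p = 0.0537). Fructose and glucose were compared with the same 3 LPS libraries, so their differences are not independent.

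The other genes gave values below 0 that missed the threshold. Tbk1 had 40.5, 40.6 and 41.0 CPM in glucose + LPS, against 49.9, 48.0 and 44.3 CPM in LPS, a log2 fold change of -0.22 (-0.37 to -0.07; adjusted p = 0.164). Ifih1 had 57.9, 65.7 and 61.5 CPM in glucose + LPS, against 74.4, 75.7 and 70.6 CPM in LPS, a log2 fold change of -0.25 (-0.43 to -0.08; adjusted p = 0.159), which passed with no filter on low counts (-0.26; 0.0474). Dhx58 had 57.2, 57.7 and 57.7 CPM in glucose + LPS, against 64.4, 65.5 and 62.5 CPM in LPS (-0.16; -0.32 to 0.01; adjusted p = 0.397). In these 3 genes the groups did not overlap, as in 9.76% of all tested genes in the lower direction. The intervals leave room for falls of moderate size, and a p that misses the threshold does not show equal levels.

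Ddx58 had 146, 160 and 145 CPM in glucose + LPS, against 167, 176 and 159 CPM in LPS (-0.16; -0.29 to -0.02; adjusted p = 0.279), and the groups overlapped. Mavs had 50.5, 51.4 and 48.6 CPM in glucose + LPS, against 50.5, 59.4 and 54.0 CPM in LPS (-0.12; -0.26 to 0.02; adjusted p = 0.438). Adar had 151, 150 and 152 CPM in glucose + LPS, against 144, 161 and 152 CPM in LPS (-0.02; -0.13 to 0.10; adjusted p = 0.945), the smallest difference of the 7. On the 6 pathway lists 3 tested genes fell and 0 rose with glucose, among them Tyk2 (-0.32, adjusted p = 0.0168) and Irf5 (-0.22, adjusted p = 0.0430). These were 1 of 16 kinase partners, 1 of 11 double-stranded RNA proteins and 1 of 7 interferon signalling genes. No call was made among 13 RIG-I-like receptor regulators, 17 DNA sensing genes and 8 ZBP1 partners. Among all tested genes 0.971% were called lower and 0.587% higher. The call for Tyk2 was lost without LPS replicate 1 or 2 or glucose + LPS replicate 2 or 3 (0.0633 to 0.104). That for Irf5 was lost without any 1 library but control replicate 1 and fructose + LPS replicate 2 (0.0501 to 0.191). Ifnb1 had 1 to 3 reads in glucose + LPS libraries and 0 or 1 in LPS libraries. The 10 microglia and macrophage markers summed to 1444 to 1501 CPM in glucose + LPS and 1602 to 1655 CPM in LPS, with no overlap. 2 of the 8 tested fell and 0 rose, Csf1r (-0.29, adjusted p = 0.00165) among them, and the part of these markers in the glucose results was not tested.

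Set directly against each other under LPS, fructose gave lower levels than glucose of the 3 sensors and Adar, while the kinases and Mavs did not pass the test. 4 of the 7 were called lower and 0 higher, where 1.88% of tested genes were called lower, 1.84% higher and 3.72% in either direction. Ddx58 averaged 86.4 ± 6.64 CPM in fructose + LPS and 150 ± 8.36 CPM in glucose + LPS (SD, n = 3 each), a log2 fold change of -0.80 ± 0.07 (-0.94 to -0.66; adjusted p = 1.88e-06, edgeR). Ifih1 averaged 40.9 ± 5.41 CPM in fructose + LPS and 61.7 ± 3.92 CPM in glucose + LPS (-0.59 ± 0.08; -0.77 to -0.41; adjusted p = 0.000389). Dhx58 averaged 38.1 ± 3.37 CPM in fructose + LPS and 57.5 ± 0.262 CPM in glucose + LPS (-0.59 ± 0.08; -0.76 to -0.42; adjusted p = 0.000231). The groups of each sensor did not overlap, as in 8.64% of all tested genes in the lower direction, and the 3 calls held without any 1 library in turn.

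Adar averaged 125 ± 9.28 CPM in fructose + LPS and 151 ± 0.657 CPM in glucose + LPS (-0.27 ± 0.06; -0.39 to -0.15; adjusted p = 0.0104), a call lost without fructose + LPS replicate 1 (0.0502) or 3 (0.0561). Ikbke, the gene called lower with either sugar, averaged 66.9 ± 5.87 CPM in fructose + LPS and 61.3 ± 4.16 CPM in glucose + LPS, with a difference of 0.12 (-0.02 to 0.27; adjusted p = 0.414). Tbk1 had 43.4 to 48.2 CPM in fructose + LPS and 40.5 to 41.0 CPM in glucose + LPS libraries, and its log2 fold change of 0.17 (0.02 to 0.33) had an adjusted p of 0.231. Mavs differed by 0.04 (-0.10 to 0.18; adjusted p = 0.827).

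In the lists, the genes lower with fructose than with glucose again included Irf7 (-0.78), Ddx60 (-0.92), Stat2 (-0.56), Tlr3 (-0.64) and Eif2ak2 (-0.47). 5 of 17 DNA sensing genes were lower and 0 higher: Ifi204 (-0.91), Mndal (-0.69), Ifi203 (-0.57), Mb21d1 (-0.30) and Samhd1 (-0.28). The calls for Ifi203 and Samhd1 were lost without fructose + LPS replicate 3 (adjusted p = 0.0849 and 0.0533), and that for Ifi203 also without glucose + LPS replicate 2 (0.0912) and with DESeq2 (0.0597). Trim25 (-0.17) and Dhx9 (-0.23) were lower, and Tyk2 (0.30) and Nlrp3 (0.24) were higher with fructose. The call for Trim25 was lost without glucose + LPS replicate 3 or fructose + LPS replicate 1 or 3 (0.0734 to 0.0778), for Dhx9 without glucose + LPS replicate 2 or 3 or fructose + LPS replicate 1 or 3 (0.0843 to 0.121), and for Tyk2 without glucose + LPS replicate 2 (0.0698) or fructose + LPS replicate 3 (0.0555). That for Nlrp3 was lost without any 1 library but control replicates 1 and 2 and fructose + LPS replicate 1 (0.0664 to 0.189). The call for Nlrp3 was also lost with library totals alone (0.0533). With the 2 groups alone, the calls for Trim25 (0.138), Dhx9 (0.111), Nlrp3 (0.0953) and Mb21d1 (0.0552) were lost.

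Seen from the control level, mean Ddx58 was 10.9 times as high in fructose + LPS, 19.0 times in glucose + LPS and 21.2 times in LPS libraries. The same figures were 6.34, 9.56 and 11.4 for Ifih1 and 8.68, 13.1 and 14.6 for Dhx58, so the sensors stayed far above control in every LPS-treated group. Adar stood at 2.34, 2.82 and 2.85 times control and Ikbke at 2.90, 2.66 and 3.49 times, in the same group order. Per gene length, Ddx58 was highest of the 8 with glucose + LPS (21.2 FPKM), followed by Adar (18.5), Dhx58 (17.5), Mavs (14.9) and Tbk1 (10.3) without overlap between these neighbours. With fructose + LPS, Mavs and Adar (15.3 FPKM each) were highest and overlapped, and Ddx58 (12.2), Tbk1 (11.7) and Dhx58 (11.6) overlapped next. These orders rest on all exonic bases as the length and may differ with another length. For Ddx58 that length was 7050 bases, against 3874 in its longest transcript.

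The genes whose levels followed each of the 7 most closely over the 12 libraries, by Pearson's r of log2(CPM + 0.5) among 11298 protein-coding genes, are given as a description. Ddx58 was closest to Ifit1, Ifit3 and Oasl2 (r = 0.999 each), Ifih1 to Samd9l (0.999), Irgm1 and Parp14 (0.998 each), and Dhx58 to Isg15, Usp18 and Irf7 (0.998 each). Adar was closest to Parp14 (0.997), Slfn5 and Ifit3 (0.996 each). Ikbke was closest to Igsf6 (0.994), Gsap (0.993) and Clec4e (0.991), and Tbk1 to Gbe1 (0.963), Lrpap1 (0.942) and S1pr2 (0.941). Mavs was closest to Nmrk1 (0.908), Lcorl (0.851) and Ptpn7 (0.850). These correlations share the 12 libraries, and each includes the step between LPS-treated and control cells.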

How the data were processed

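Gene counts had been made with featureCounts 1.5.0-p3 on build mm10, per the submitters' processing notes. The authors deposited raw read counts and FPKM for the same 12 libraries. Each deposited FPKM equalled the count divided by gene length and a constant per library (at 200 counts or more, 7860 genes deviated by at most 8.73e-08%). Aligner, annotation release and strand setting: not given in the sources used here.

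The deposited counts entered edgeR 4.0.16 under R 4.3.3 (quasi-likelihood F test, default expression filter, TMM scaling, 1 coefficient per group over 12 libraries, 8 residual degrees of freedom). P-values were adjusted by Benjamini-Hochberg over 12766 genes and called below 0.05. CPM used TMM-scaled library sizes. Standard errors came from the F statistic. Any 2 libraries of a group differed beyond counting error (chi-square per degree of freedom at least 3.61), so none was counted as a copy. Alternatives were DESeq2 1.42.0, upper-quartile and total scaling, no filter, 2 groups alone, a replicate block and leaving out each library. Positions follow the deposited table and GENCODE M21, and sequence matches used BLAST 2.17.0+ over stretches of at least 75 bases.

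The 8 genes and the 6 pathway lists were chosen with earlier results of these data known. From each list the text names up to 4 genes with the smallest adjusted p under LPS, 13 genes fixed by name, and those called in a sugar comparison; for each of the 7 genes, the 3 with the highest r are named. Some genes that this rule names are not reported here.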

Additional observations from a re-analysis of the deposited data

Results flagged for a closer look

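The effects of fructose and of glucose under LPS differed, by the direct test between the 2 sugar groups in edgeR, for 4 of the 7 genes. The log2 difference of fructose + LPS minus glucose + LPS was -0.80 for Ddx58, -0.59 for Ifih1, -0.59 for Dhx58 and -0.27 for Adar. All 3 fructose + LPS libraries were below all 3 glucose + LPS libraries in each of these genes, as in 8.64% of all tested genes. The call for Adar was lost without fructose + LPS replicate 1 (adjusted p = 0.0502) or 3 (0.0561), and those for the sensors held in every such fit.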

How the results depend on the processing

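Of 504 alternative values for the 7 genes over 18 settings, 489 kept their direction and side of the threshold, 8 lost and 2 gained a call, and 5 changed sign. The sign changes were all of values near 0: Mavs with LPS was -0.030 with upper-quartile scaling, -0.072 with library totals alone and -0.046 to 0.073 when libraries were left out in turn, and Adar with glucose was -0.054 to 0.025. The number of genes called with glucose (199) was 427 with no filter, 391 with the replicate block, 329 with DESeq2 and 67 to 234 without single libraries; it was 67, 74 and 71 without LPS replicate 1, 2 or 3 and 70 without glucose + LPS replicate 3. Of the 7 genes, 2 were called with glucose with no filter and 2 with the replicate block, Ifih1 being the second, and 0 or 1 without single libraries. For fructose against glucose, 475 genes were called, 735 with the replicate block, 247 with the 2 groups alone and 332 to 469 without single libraries. The count with fructose (627) was 426 to 644 without single libraries, 4 or 5 of the 7 genes among them, and the count with LPS (3677) was 2992 to 3913 with all 6. Deviations of same-numbered libraries correlated at -0.19 to 0.24 over 18 pairs. Replicate 1 had the lowest mitochondrial share of counts in control (0.618%), LPS (0.581%), glucose + LPS (0.518%) and fructose + LPS (0.564%). It also had the highest ribosomal RNA share in every group. With the replicate block more genes were called in every comparison, 4149 with LPS and 847 with fructose among them. Whether same-numbered libraries share a culture or batch was not tested, and the labels state no pairing. The block is given as an alternative only. Depth limits Zbp1 and Ifnb1, whose few reads leave wide intervals.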
